A study of Mus musculus with 12 samples.

Results

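The 10 genes described here belong to the pathway by which insulin and amino acids set protein synthesis and breakdown in muscle: Sesn2, Ddit4, Deptor, Mtor, Rptor, Eif4ebp1, Irs1, Irs2, Fbxo32 and Trim63. They were taken by symbol from the deposited count tables, where all 10 were found among 51911 features, and all 10 passed the filter on low counts in every comparison. Total RNA of mouse heart was sequenced in 12 libraries, in 4 groups of 3: hearts labelled PTCD1 knockout (KO) and hearts labelled wild type (WT), with RNA left untreated, and the same 2 genotypes with RNA treated with CMC. The design asks what loss of PTCD1 changes at the RNA level; PTCD1 is a mitochondrial RNA-binding protein. CMC is a carbodiimide that attaches to pseudouridine, and per the labels' protocols it was applied to RNA already isolated from the heart, so it is a treatment of RNA and not of the animal. The sources used here do not give age, sex, strain, the promoter that drove the deletion or the number of mice per library, nor whether a CMC library and an untreated library came from the same heart. All libraries carry the same run code in their titles, and p-values measure the spread between these libraries, which may be technical.

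In outline, mTORC1 is a protein kinase complex, built around the kinase mTOR and its adaptor raptor, that drives translation when amino acids and growth factors are plentiful. Insulin reaches it through the adaptors IRS1 and IRS2, phosphoinositide 3-kinase and AKT. Sestrin 2, REDD1 (Ddit4) and DEPTOR restrain mTOR signalling, and the 4E-BP proteins hold back cap-dependent translation until mTORC1 phosphorylates them. When AKT is inactive, FOXO transcription factors enter the nucleus and, in muscle, raise the ubiquitin ligases atrogin-1 (Fbxo32) and MuRF1 (Trim63), which mark muscle proteins for degradation.

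In untreated RNA all 10 genes were called different between KO and WT by edgeR. The brakes Sesn2 and Ddit4 rose, at log2 fold changes of 4.05 and 1.44, and the translation repressor Eif4ebp1 rose by 2.40. The insulin receptor adaptors moved in opposite directions, with Irs2 higher at 2.46 and Irs1 lower at -1.12. Both muscle ubiquitin ligases fell, Fbxo32 at -1.35 and Trim63 at -0.53. The kinase Mtor (0.64), its adaptor Rptor (0.27) and Deptor (0.33) rose by less. Rptor and Deptor were not called by DESeq2 (adjusted p = 0.0754 and 0.0701). In all, 7 of the 10 were called higher and 3 lower in KO, where 57.8% of the 12195 nuclear genes tested were called, 29.1% higher and 28.7% lower. The median absolute log2 fold change was 1.24 over the 10 genes and 0.41 over all genes tested. The 10 genes were chosen with earlier results of these data known, so these counts and medians describe them and test nothing. The 3 KO and 3 WT libraries did not overlap in any of the 10 genes. The share of all genes tested that separate in this way was not counted, so this is not given as a trait of these genes.

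Libraries held 10389398 to 12462093 counts, of which 70.5% to 75.4% were mitochondrial, so that 2683284 to 3187748 nuclear counts lie behind the values below. Ptcd1 itself had 64 counts in the 3 untreated KO libraries together, against 223 in the 3 untreated WT libraries, and 64 against 256 after CMC, which matches the labels. Replicates of the WT CMC group differed more from one another than those of the other groups: the chi-square per degree of freedom between pairs was 1.35 to 2.28 there, against at most 1.32 elsewhere, so that results on that group are also given without its replicate 3. Values per library are counts per 1000000 nuclear counts (CPM), with library sizes scaled by the trimmed mean of M-values. Unless another tool is named, tests are edgeR's quasi-likelihood test with Benjamini-Hochberg adjustment over all nuclear genes tested, called at an adjusted p under 0.05, and errors after ± are SD over 3 libraries. An SE beside an edgeR value is the size of the log2 fold change divided by the square root of the F value of its test. It is not a standard error given by the model.

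**Figure D1:**
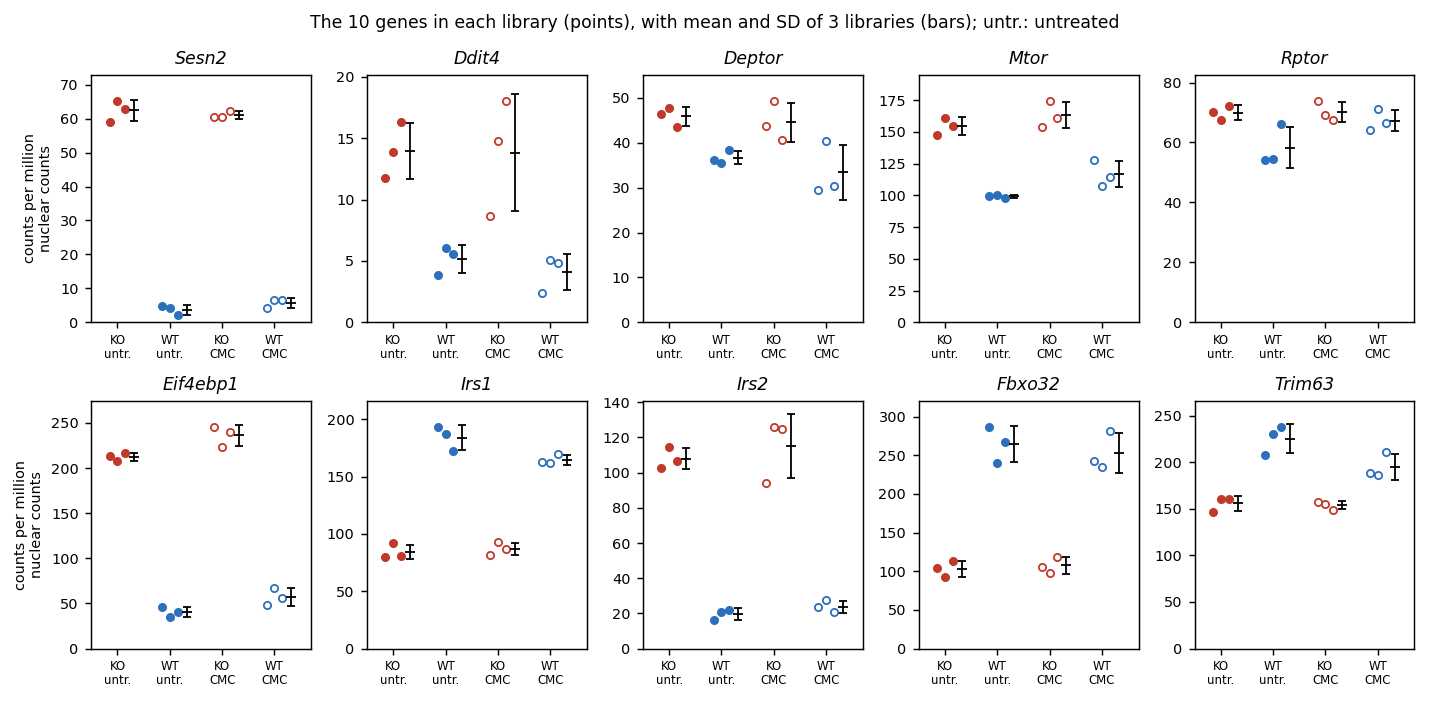
Level of each of the 10 genes in each library, in counts per 1000000 nuclear counts (CPM) on linear axes from 0; points are libraries, filled for untreated and open for CMC, red for KO and blue for WT, and bars are mean ± SD of 3 libraries. In the untreated libraries the KO points lie apart from the WT points in every panel; for Sesn2 they lie between 59.1 and 65.2 CPM in KO and between 2.09 and 4.88 CPM in WT. How many of all genes tested separate in this way was not counted.

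Sesn2 encodes sestrin 2, a leucine sensor that, when leucine is scarce, binds the GATOR2 complex and keeps mTORC1 off the lysosome; it is also induced by ATF4 in the integrated stress response. The gene spans chr4:132492032-132510501 on mm10, minus strand. It measured 59.1, 65.2 and 63.0 CPM in the untreated KO libraries, against 4.88, 4.25 and 2.09 CPM in the untreated WT libraries. In WT these values rest on 14, 12 and 6 counts, so the size of the rise is less well fixed than its direction. The log2 fold change was 4.05 (SE 0.18, adjusted p = 1.03e-62), the largest of the 10 genes, and 61 of the 12195 genes tested rose by more. DESeq2 gave a log2 fold change of 4.06 with a larger SE, 0.29. The rise was not shared by the related sestrins. Sesn1 was lower in KO, at 90.0 ± 5.5 CPM in KO and 105 ± 4.6 CPM in WT (log2 fold change -0.22, adjusted p = 0.00489). That call did not hold with DESeq2 (adjusted p = 0.0558) or when libraries were scaled by their nuclear total (0.204). Sesn3 averaged 33.7 CPM in KO and 40.2 CPM in WT and was not called (-0.25, adjusted p = 0.0547), though it was called without replicate 2 of untreated WT (0.0249). Per kilobase of exon, the ratio of Sesn2 to the sum of Sesn1 and Sesn3 was 0.726 ± 0.066 in KO and 0.0367 ± 0.014 in WT, with no overlap (exact two-sided permutation test, p = 0.1, the smallest that 3 against 3 allows). Sesn2 thus made up 42.0% of sestrin message in KO and 3.53% in WT, and the summed sestrin level was 42.8 ± 1.3 in KO and 30.2 ± 1.3 in WT CPM per kilobase.

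Ddit4 encodes REDD1, a stress- and glucocorticoid-induced protein that restrains mTORC1 through the TSC complex (chr10:59949669-59951834, minus strand). It is the least abundant of the 10 in KO by counts, with 38, 43 and 51 counts in untreated KO and 11, 17 and 16 in untreated WT. On the CPM scale that is 11.8, 13.9 and 16.3 in KO, against 3.84, 6.02 and 5.57 in WT. Every KO library lay above every WT library (log2 fold change 1.44, SE 0.24, adjusted p = 3.42e-08). Its relative Ddit4l, which encodes REDD2 and is found in muscle, went the other way, with 2, 3 and 6 counts in KO and 10, 10 and 15 in WT (-1.77, SE 0.46, adjusted p = 0.000363). With so few Ddit4l counts, the ratio of Ddit4 to Ddit4l per kilobase was uneven between KO libraries, 23.2 ± 8.7 in KO and 2.14 ± 0.59 in WT, again with no overlap (exact two-sided permutation test, p = 0.1).

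Deptor encodes an inhibitor that binds mTOR directly in both of its complexes (chr15:55112317-55259271, plus strand). It measured 46.4, 47.8 and 43.5 CPM in untreated KO and 36.3, 35.4 and 38.3 CPM in untreated WT. The difference was small next to those of Sesn2 and Ddit4 (log2 fold change 0.33, SE 0.11, adjusted p = 0.00674). It was not called by DESeq2 (adjusted p = 0.0701), nor in the authors' deposited table, which gives 0.34 with an adjusted p of 0.0973.

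Mtor, the kinase itself (chr4:148448611-148557683, plus strand), measured 148, 161 and 155 CPM in untreated KO and 99.8, 99.9 and 97.9 CPM in untreated WT. The WT libraries were within 2.03 CPM of one another, and the lowest KO library was 47.7 CPM above the highest WT library. The log2 fold change was 0.64 (SE 0.07, adjusted p = 2.40e-18). Rptor, the adaptor that brings substrates to mTORC1 (chr11:119602905-119899576, plus strand), measured 70.3, 67.4 and 72.2 CPM in KO and 54.1, 54.6 and 66.2 CPM in WT. Its KO and WT libraries came closest of the 10 genes on the CPM scale: the lowest KO library was 1.26 CPM above the highest WT library. The log2 fold change was 0.27 (SE 0.09, adjusted p = 0.00608). The call was lost without WT replicate 1 (adjusted p = 0.0593), without WT replicate 2 (0.0537) and with DESeq2 (0.0754), and the authors' deposited table gives an adjusted p of 0.0985. Rictor, which takes the place of raptor in the second complex, mTORC2, averaged 70.1 ± 6.8 CPM in KO and 70.9 ± 7.8 CPM in WT and was not called (log2 fold change -0.01, SE 0.08, adjusted p = 0.904).

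Eif4ebp1 encodes 4E-BP1, which binds the cap-binding factor eIF4E and is released from it on phosphorylation by mTORC1; its gene is also a target of ATF4 (chr8:27260329-27276674, plus strand). It measured 213, 208 and 217 CPM in untreated KO and 45.7, 35.4 and 40.1 CPM in untreated WT. The KO libraries agreed closely, and the groups were far apart (log2 fold change 2.40, SE 0.08, adjusted p = 1.17e-88). Among the 10 genes this was the smallest p. Eif4ebp2, the second member of the family, fell, with 15.6 ± 1.6 CPM in KO and 24.1 ± 3.1 CPM in WT (-0.63, SE 0.16, adjusted p = 0.000302). Eif4ebp3 had 2 counts over the KO libraries and 3 over the WT libraries and was not tested. Eif4ebp1 made up 97.0% of 4E-BP message per kilobase in KO and 79.8% in WT, and the family total was 99.8 ± 1.6 in KO and 23.0 ± 2.8 in WT CPM per kilobase.

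IRS1 and IRS2 are the docking proteins that the insulin receptor phosphorylates; in mouse liver, where the pair has been studied most, Irs2 is raised by FOXO1 in fasting. The promoters of the pair are printed because the genes moved in opposite directions in these hearts while their start regions share letters. The sequences are from RefSeq on GRCm38.p6, 250 bases before to 50 bases after the start, 5′ to 3′ in the direction of the gene, with the E-box CACGTG in capitals.
Irs1 promoter, chr1:82291390-82291689, minus strand: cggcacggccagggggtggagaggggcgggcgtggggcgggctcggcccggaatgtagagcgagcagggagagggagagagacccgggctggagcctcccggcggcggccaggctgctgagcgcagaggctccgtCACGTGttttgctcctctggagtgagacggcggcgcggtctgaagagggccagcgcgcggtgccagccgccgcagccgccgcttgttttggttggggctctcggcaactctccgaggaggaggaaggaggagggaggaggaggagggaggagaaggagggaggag
Irs2 promoter, chr8:11008880-11009179, minus strand: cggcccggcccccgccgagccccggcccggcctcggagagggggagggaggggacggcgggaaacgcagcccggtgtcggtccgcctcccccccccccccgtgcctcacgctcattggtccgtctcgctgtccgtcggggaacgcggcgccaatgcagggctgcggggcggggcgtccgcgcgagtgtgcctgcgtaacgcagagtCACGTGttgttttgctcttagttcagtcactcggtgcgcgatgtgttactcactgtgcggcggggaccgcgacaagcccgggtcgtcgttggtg
The longest runs the promoters have in common are 2 of 10 bases, GTCACGTGTT, which holds that E-box, and TGTTTTGCTC, which does not. The E-box begins at position -115 in Irs1 and -44 in Irs2 relative to the RefSeq start, which for Irs2 lies 471 bases upstream of the start of the gene model used for counting. Each run, read on either strand, is in 25 of 32851 mouse promoters of the same length, and CACGTG in 7.15% of them; these letters were chosen after the sequences were seen. How often any 2 promoters share some run of 10 bases was not counted, so the shared runs are not given as a trait of this pair. Neither promoter holds the FOXO core GTAAACA in this window.

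Irs2 (chr8:10984681-11008458, minus strand) measured 103, 115 and 106 CPM in untreated KO and 16.0, 20.9 and 21.9 CPM in untreated WT. Irs1 (chr1:82233101-82291416, minus strand) measured 80.2, 91.6 and 80.9 CPM in KO and 193, 187 and 172 CPM in WT. The order of the pair turned over: every KO library had more Irs2 than Irs1, and every WT library more Irs1 than Irs2. The log2 fold changes were 2.46 for Irs2 (SE 0.10, adjusted p = 5.43e-65) and -1.12 for Irs1 (SE 0.07, adjusted p = 1.23e-42). Per kilobase the ratio of Irs2 to Irs1 was 1.85 ± 0.048 in KO and 0.156 ± 0.033 in WT (exact two-sided permutation test, p = 0.1). Irs2 was 65.0% of the pair's message in KO and 13.4% in WT. The pair's summed level changed far less than either gene, at 26.3 ± 1.6 in KO and 23.2 ± 0.80 in WT CPM per kilobase.

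**Figure D2:**
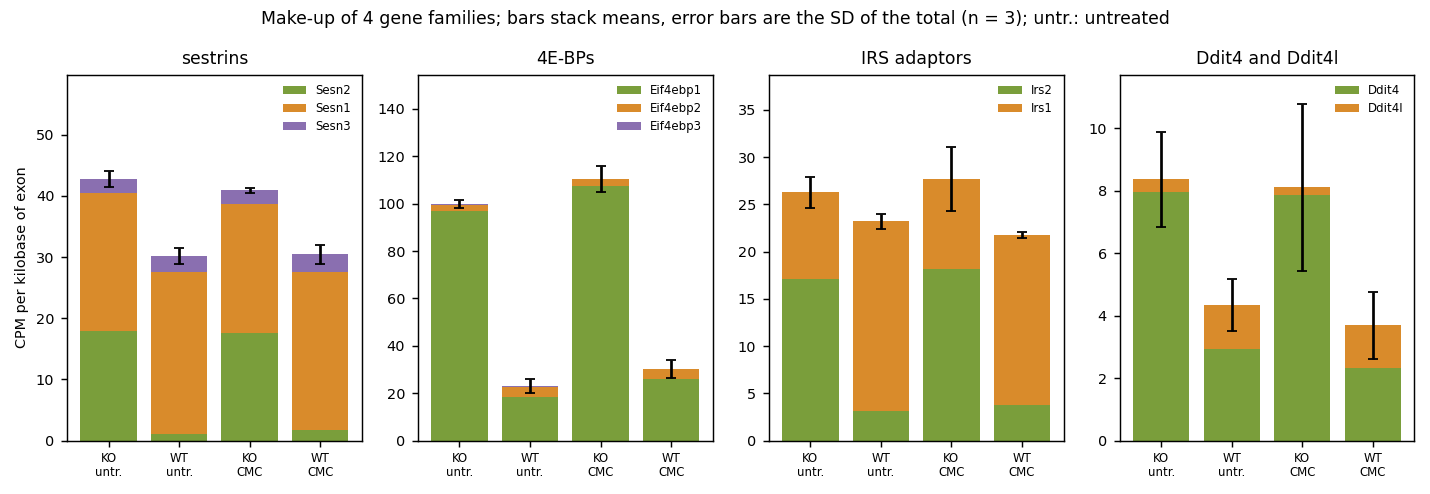
Summed level of the sestrins, the 4E-BPs, Irs1 with Irs2, and Ddit4 with Ddit4l, in CPM per kilobase of exon on axes from 0; each bar stacks the group means of the family's genes, and error bars are the SD of the total over 3 libraries. The IRS bars differ little in height, 26.3 in untreated KO and 23.2 in untreated WT, while Irs2 takes most of the bar in KO and Irs1 in WT; the 4E-BP bar is 99.8 in untreated KO and 23.0 in untreated WT.

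Fbxo32 encodes atrogin-1, a muscle ubiquitin ligase subunit (chr15:58175879-58214892, minus strand). It measured 104, 92.6 and 113 CPM in untreated KO and 286, 241 and 267 CPM in untreated WT (log2 fold change -1.35, SE 0.06, adjusted p = 5.88e-62). Trim63 encodes MuRF1, the ligase that acts on sarcomere proteins (chr4:134315120-134329629, plus strand). It measured 147, 161 and 160.1 CPM in KO and 208, 231 and 238 CPM in WT (-0.53, SE 0.06, adjusted p = 1.07e-17). Both were lower in all 3 KO libraries, and Fbxo32 fell by more: its ratio to Trim63 per kilobase was 0.272 ± 0.031 in KO and 0.484 ± 0.071 in WT (exact two-sided permutation test, p = 0.1).

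Both ligases are expressed in heart muscle cells, and the summed level of 7 cardiomyocyte markers moved the same way, at 117262 to 117440 CPM in untreated KO and 194386 to 197801 CPM in untreated WT, with 7 of 7 lower. In bulk heart, fewer cells of a type and less RNA per cell cannot be told apart, and the part of these markers in the fall of the ligases was not tested. Counts of markers called are to be read against the 29.1% higher and 28.7% lower over all genes tested. Of the markers of other cells, 4 macrophage genes summed to 157 to 168 CPM in KO and 120 to 127 CPM in WT, with 2 of 4 higher. Fibroblast genes summed to 2177 to 2243 CPM in KO and 1960 to 2043 CPM in WT (3 of 6 higher, 2 lower). Endothelial genes overlapped, at 1111 to 1158.5 CPM in KO and 1097 to 1158.6 CPM in WT (2 of 5 higher, 2 lower). Other lists were lower with the ligases: smooth muscle and pericyte genes summed to 1276 to 1299.5 CPM in KO and 1634 to 1710.0 CPM in WT (3 of 4 lower), adipocyte genes to 21.9 to 30.0 CPM in KO and 43.9 to 46.3 CPM in WT (2 of 3 tested lower), and red blood cell genes to 421 to 444 CPM in KO and 483 to 677 CPM in WT (4 of 5 lower). Markers of skeletal muscle, which also expresses both ligases, summed to at most 8.67 CPM in untreated KO and 3.49 CPM in untreated WT.

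The Trim63 promoter is printed because it is the one promoter, of 7 among the 10 genes that were matched, that holds the FOXO core GTAAACA, here on the opposite strand as TGTTTAC, in capitals. No promoter was matched for Eif4ebp1, Deptor or Fbxo32, so theirs were not searched for any motif.
Trim63 promoter, chr4:134314870-134315169, plus strand: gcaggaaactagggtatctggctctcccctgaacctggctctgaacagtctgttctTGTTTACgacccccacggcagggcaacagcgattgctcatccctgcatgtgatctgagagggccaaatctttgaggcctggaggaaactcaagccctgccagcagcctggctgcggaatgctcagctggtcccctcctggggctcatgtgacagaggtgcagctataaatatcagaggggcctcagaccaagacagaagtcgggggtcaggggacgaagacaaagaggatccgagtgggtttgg
The match begins at position -194 from the start, and 3.65% of all 32851 promoters hold the motif on either strand. None of the 7 promoters (Sesn2, Ddit4, Irs1, Irs2, Mtor, Rptor and Trim63) holds the amino acid response core TGATGNAA, which 3.97% of all promoters hold, or the cyclic AMP element TGACGTCA, which 1.79% hold, or the full glucocorticoid response element, which 0.0091% hold.

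Set in order of level per kilobase, the 10 genes ranked differently in KO and in WT. In untreated KO the order was Eif4ebp1 (96.8 CPM per kilobase), Trim63 (54.8), Sesn2 (18.0), Irs2 (17.1), Mtor (15.3), Fbxo32 (14.9), Irs1 (9.21), Ddit4 (7.97), Rptor (5.19) and Deptor (5.17). Among neighbours in that order, the library ranges overlapped for Sesn2 and Irs2, Mtor and Fbxo32, Irs1 and Ddit4, and Rptor and Deptor. In untreated WT the order was Trim63 (79.3), Fbxo32 (38.2), Irs1 (20.1), Eif4ebp1 (18.4), Mtor (9.81), Rptor (4.33), Deptor (4.13), Irs2 (3.11), Ddit4 (2.93) and Sesn2 (1.08). There the ranges overlapped for Irs1 and Eif4ebp1, Rptor and Deptor, and Irs2 and Ddit4. Sesn2 thus stood last of the 10 in WT and level with Irs2 in KO, and the ligases that led in WT stood below Eif4ebp1 in KO.

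**Figure D3:**
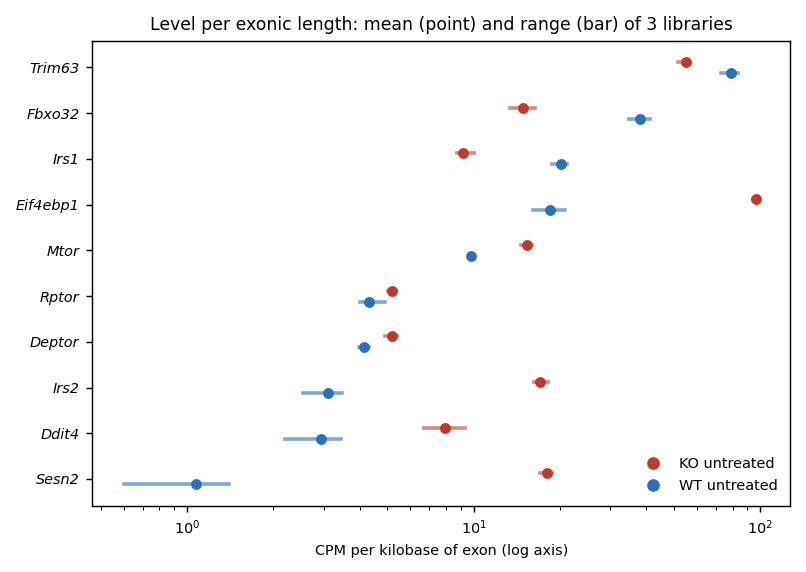
Level of each gene in CPM per kilobase of exon, on a log axis, in untreated KO (red) and untreated WT (blue); points are means and bars the range of 3 libraries, with genes ordered by their WT level. Eif4ebp1 lies at 96.8 in KO and 18.4 in WT, and Sesn2, lowest of the 10 in WT at 1.08, lies at 18.0 in KO.

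The comparison was made again in RNA treated with CMC, in other libraries of the same genotypes. Here 6 of the 10 genes were called higher and 3 lower in KO, where 54% of 12198 genes were called, 27.2% higher and 26.8% lower. Sesn2 measured 60.4, 60.6 and 62.4 CPM in KO CMC libraries and 4.06, 6.70 and 6.54 CPM in WT CMC libraries (log2 fold change 3.39, SE 0.16, adjusted p = 5.61e-18). Eif4ebp1 measured 245, 223 and 240.5 CPM in KO and 48.4, 67.3 and 55.8 CPM in WT (2.04, SE 0.09, adjusted p = 8.40e-19). Irs2 measured 93.9, 126 and 125 CPM in KO and 23.3, 27.4 and 20.7 CPM in WT (2.25, adjusted p = 1.53e-16). These genes stayed far apart between genotypes, with no overlap of libraries. The share of all genes tested that separate in this way after CMC was not counted either.

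The other calls after CMC had the direction they had in untreated RNA. Ddit4 was higher (log2 fold change 1.72, adjusted p = 1.22e-05), as was Mtor (0.48, adjusted p = 6.02e-06). Irs1 (-0.93, adjusted p = 1.10e-11), Fbxo32 (-1.24, adjusted p = 2.16e-14) and Trim63 (-0.34, adjusted p = 0.000141) were lower. Deptor was higher (0.41, adjusted p = 0.00693), but that call was lost without KO CMC replicate 2 (adjusted p = 0.0519) or without WT CMC replicate 1 (0.0504). Rptor was not called: it measured 73.8, 69.0 and 67.4 CPM in KO and 64.3, 71.1 and 66.4 CPM in WT, the groups overlapped, and the log2 fold change was 0.05 (SE 0.09, adjusted p = 0.628). Without WT CMC replicate 3, again 6 genes were called higher and 3 lower, with Sesn2 at 3.49, Irs2 at 2.17 and Fbxo32 at -1.15.

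**Figure D4:**
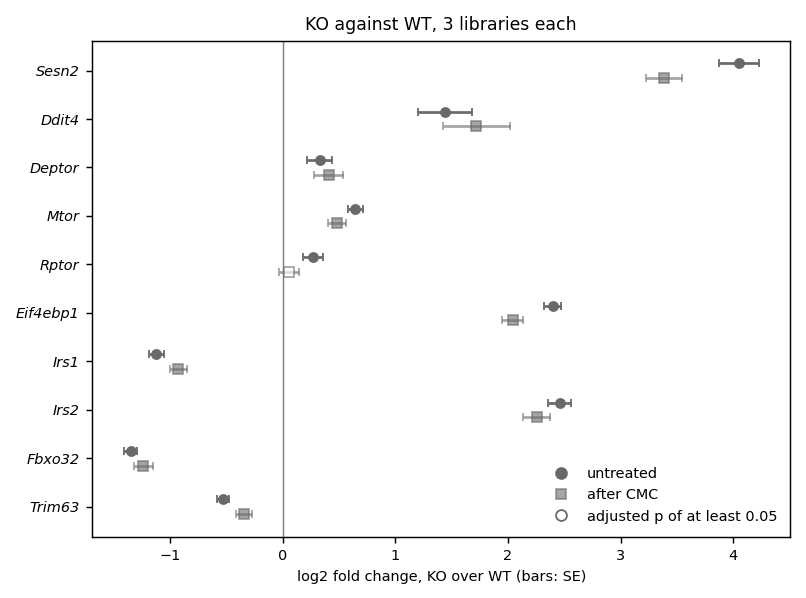
Log2 fold change of KO over WT for each gene, with its SE, in untreated RNA (circles) and after CMC (squares), from edgeR on 3 libraries each; open symbols have an adjusted p of at least 0.05. Each pair of symbols lies on the same side of 0, and the Rptor value after CMC, 0.05, is the one open symbol.

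CMC and untreated RNA were also compared within each genotype. In KO, CMC against untreated, 0 of 10 were called by edgeR, where 12.1% of 11967 genes were called, 6.77% higher and 5.36% lower; 1 had an unadjusted p under 0.05, and DESeq2 called 0 and gave no adjusted p to 1, Ddit4. Eif4ebp1 was the gene with that p, at a log2 fold change of 0.15 (adjusted p = 0.0585), and it was called without KO CMC replicate 2 (0.0301) and with the replicate number as a block (0.0492). In WT, 1 of 10 was called, Eif4ebp1, higher after CMC at 0.50 (SE 0.12, adjusted p = 0.0157), where 2.23% of 12099 genes were called, 0.967% higher and 1.26% lower. That call was lost without replicate 2 (adjusted p = 0.169) or replicate 3 (0.0608) of untreated WT, without replicate 2 of WT CMC (0.134) and with DESeq2 (0.0819). To Sesn2, Ddit4 and Irs2 in WT, DESeq2 gave no adjusted p. Trim63 in WT was -0.21 (adjusted p = 0.105) and was called, lower after CMC, without WT CMC replicate 3 (0.00436). The KO against WT change itself was tested between CMC and untreated RNA in 1 fit of all 12 libraries. By edgeR 0 of 10 differed, where 1.47% of 12786 genes did, 1.08% upward and 0.391% downward; 3 had an unadjusted p under 0.05 (Sesn2 at -0.65, Eif4ebp1 at -0.35 and Trim63 at 0.20). DESeq2 called 0 of the 5 members to which it gave an adjusted p, and gave none to the other 5.

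The genes around the 10 were counted in 7 lists, to be read against the 29.1% higher and 28.7% lower over all genes tested in untreated RNA. The lists overlap in part: Trib3 is counted both among the brakes on mTORC1 and in the ATF4 branch. In the list of mTOR complexes and nutrient sensing, 12 of 30 tested genes were higher in untreated KO, 1 lower and 17 not called, with a median log2 fold change of 0.24 beside -0.0035 over all genes. The 3 largest were rises: Fnip2 (1.53), a partner of folliculin, Lamtor3 (0.83), part of the Ragulator anchor on the lysosome, and Akt1s1 (0.81), which encodes PRAS40, an inhibitory partner of mTORC1. After CMC the counts were 11 higher and 1 lower of 31, and 10 higher and 4 lower without WT CMC replicate 3. With DESeq2, without KO CMC replicate 2, or without WT CMC replicate 1, 7 were higher; without KO CMC replicate 3, 2 were lower.

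Further brakes on mTORC1 went both ways, with 3 higher, 6 lower and 5 not called of 14, where 29.1% and 28.7% of all genes were higher and lower; with libraries scaled by their nuclear total, 5 were higher. Trib3, a pseudokinase induced by ATF4 and reported to bind AKT, had 127, 141 and 132 counts in KO and 2, 3 and 0 in WT (log2 fold change 6.08, adjusted p = 1.55e-56). Prkab1, a subunit of AMP-activated kinase, was lower, at 17.0 ± 2.0 CPM in KO and 34.2 ± 2.4 CPM in WT (adjusted p = 7.81e-11). Of the TSC complex, Tsc1 was at -0.09 and not called (adjusted p = 0.445). Tsc2 was at -0.15 (adjusted p = 0.0278), a call lost without KO replicate 1 (0.0922), KO replicate 2 (0.169) or WT replicate 3 (0.0978), with DESeq2 (0.136), with no filter on low counts (0.111) and with libraries scaled by their nuclear total, where it was at -0.03 (0.667).

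Among mTORC1 outputs in translation and autophagy, 6 were higher, 8 lower and 3 not called of 17 tested, beside 57.8% of all genes called. The translation factors Eif4a1, an RNA helicase (1.81), and Eef2, the elongation factor that moves the ribosome (0.86), were higher, and Lpin1, a phosphatidate phosphatase whose nuclear entry mTORC1 restrains, was lower (-1.67). From the insulin receptor to AKT, 10 were higher, 9 lower and 9 not called of 28, with a median of 0.03; over all genes 29.1% were higher and 28.7% lower, so this list lay near the background. The largest changes there were falls: the adaptor Grb2 (-1.95), the receptor inhibitor Grb14 (-1.72) and Pik3r1, the regulatory subunit of phosphoinositide 3-kinase (-1.59). The receptor Insr averaged 335 ± 15 CPM in KO and 278 ± 2.6 CPM in WT (0.27, adjusted p = 3.75e-08).

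FOXO factors and other atrophy genes gave 11 higher, 9 lower and 6 not called of 26 tested, beside 29.1% higher and 28.7% lower over all genes. Of the factors themselves, Foxo1 message averaged 25.5 ± 3.3 CPM in KO and 27.7 ± 2.7 CPM in WT (-0.11, adjusted p = 0.503), and Foxo3 message was lower (-0.41, adjusted p = 8.42e-08). Activity of these proteins was not measured, and their part in the fall of the ligases was not tested. Ctsl, a lysosomal protease also raised in wasting muscle (1.95), and Gadd45a, a stress gene (1.82), were higher, against the fall of Fbxo32 and Trim63, and Acvr2b, a receptor of myostatin, was lower (-1.36). Acvr2b did not pass the filter on low counts in KO against WT after CMC, so its fall was not tested there.

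In the ATF4 branch of the stress response, 7 of 7 were higher in KO, with a median of 3.49. Over all genes tested in untreated RNA, 29.1% were higher and 28.7% lower. This list and the glucocorticoid list below were chosen with earlier results of these data known. Atf4 averaged 661 ± 18 CPM in KO and 85.9 ± 3.0 CPM in WT (2.95, adjusted p = 8.65e-147), the asparagine synthetase gene Asns rose by 6.53 and Chac1, a glutathione-degrading enzyme, by 6.02. Of 12 glucocorticoid-responsive genes, 9 were higher and 3 lower, with a median of 1.54, led by the metallothionein Mt2 (3.64), the receptor co-chaperone Fkbp5 (2.46) and the clock gene Per1 (2.25). After CMC the ATF4 branch again had 7 of 7 higher and the glucocorticoid list 9 higher and 2 lower. Over all genes tested after CMC, 27.2% were higher and 26.8% lower.

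**Figure D5:**
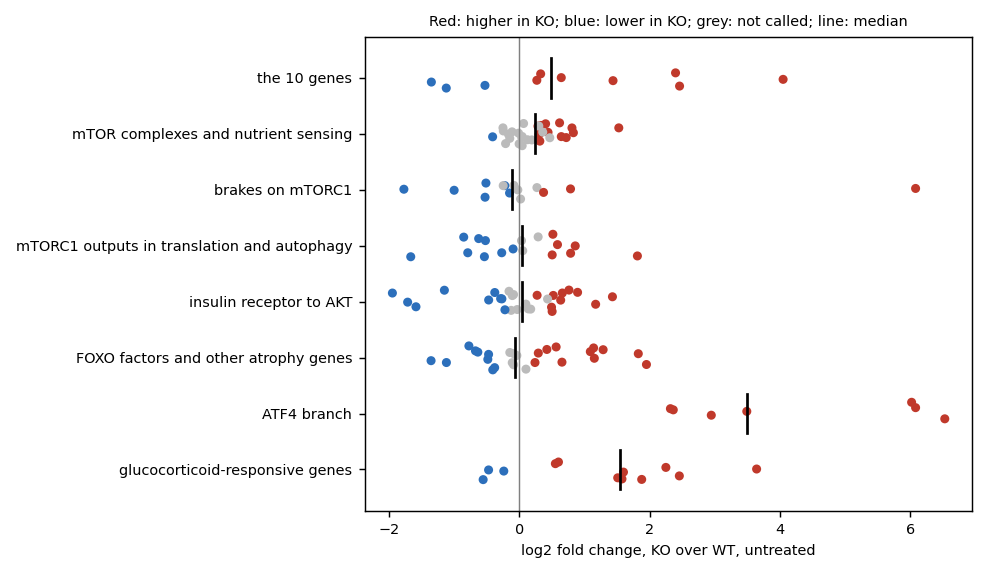
Log2 fold change of KO over WT in untreated RNA for the 10 genes and for each tested gene of the 7 lists; red points were called higher, blue lower and grey not called (edgeR), black lines are medians, and vertical scatter within a row has no meaning. The ATF4 branch lies wholly to the right of 0, with a median of 3.49, while the lists around the insulin receptor and mTORC1 outputs lie on both sides.

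Among 8709 genes with a mean of at least 10 CPM, those most like Sesn2 over the 12 libraries, by the root mean square difference of centred log2 CPM, included Ddit3 (0.291), which encodes the stress factor CHOP, and Abra (0.311), which encodes an actin-binding protein of muscle. Those most like Fbxo32 were Antxr2 (0.093), an anthrax toxin receptor, Klhl31 (0.102), a kelch protein of muscle, and Cacnb2 (0.103), a calcium channel subunit. With genes down to a mean of 1 CPM admitted, 12379 in all, the same genes stood nearest to each.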

How the data were processed

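Total RNA of mouse heart was measured in 12 libraries, with cytoplasmic ribosomal RNA depleted before TruSeq preparation, per the labels' protocols. The submitters' processing notes name mm10 and the tools DESeq2 1.16.1, featureCounts 1.5.1, HISAT2 2.0.5 and SAMtools 1.5; the sources used here do not say whether counting used strand. The authors deposited raw counts per gene, and a comparison table of KO and WT that holds log2 fold changes, a normalized mean signal, and p-values; its direction was read from the sign of Ptcd1. Gene names came from GENCODE M21, and 315 of 51911 features had no symbol.

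The 36 mitochondrial features were left out, and low nuclear genes were dropped (filterByExpr), library sizes were scaled by TMM, and edgeR 4.0.16 was fitted to the 6 libraries of each comparison; the difference between changes used all 12. Alternatives were DESeq2 1.42.0, other scalings, no filter, all 12 libraries, a replicate block and leaving out each library. Scaling by the nuclear total without TMM moved the median of all genes to 0.11 on the log2 scale in untreated RNA and gave 4395 genes higher and 2764 lower in KO, against 3550 and 3497. The test scripts were tested on simulated data. Antisense features that share exons with Irs1, Irs2, Rptor, Deptor and Fbxo32 held at most 5 counts each over all libraries. Besides the 10 genes, the text names up to 3 called genes with the largest change per list and a fixed set of relatives and regulators. The members and lists were chosen with earlier results of these data known. One result of the pattern comparison is not reported here. The deposited ontology and per-base mitochondrial tables were not used here.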

Additional observations from a re-analysis of the deposited data

Results flagged for a closer look

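The KO against WT change of Ctsl differed between CMC and untreated RNA in a test of that difference, by 0.35 on the log2 scale (adjusted p = 0.0174, edgeR; 2.29 after CMC and 1.95 untreated). With single libraries left out the adjusted p ranged from 1.33e-06, without WT CMC replicate 3, to 0.134, without WT CMC replicate 1; it also missed the threshold without KO untreated replicate 1 (0.0855) or 3 (0.0573), WT untreated replicate 2 (0.0617), KO CMC replicate 1 (0.0583) or 2 (0.0644), and WT CMC replicate 2 (0.0686).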

How the results depend on the processing

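The KO against WT calls of Sesn2, Ddit4, Eif4ebp1, Irs1, Irs2, Mtor, Fbxo32 and Trim63 held in untreated RNA and after CMC under each of the 13 alternatives. In WT, CMC against untreated, the members called higher numbered 0 with DESeq2, which gave no adjusted p to 3 members. They numbered 0 to 1 with 1 library left out. Members called lower numbered 1 in the fit of all 12 libraries and 0 to 1 with 1 left out. All genes called numbered 81 with DESeq2, 436 in the fit of all 12, and 73 to 749 with 1 left out, against 270. In KO, all genes called numbered 574 with DESeq2, against 1451, and members called higher 0 to 1 with 1 library left out. For the difference between changes, 99 genes were called with DESeq2 and 78 to 621 with 1 library left out, against 188. The WT count moved by over 1.5 times without WT untreated replicate 1 (73), 2 (110) or 3 (154) and WT CMC replicate 1 (115) or 3 (749). The difference count did so without KO untreated replicate 1 (111) or 3 (107), WT untreated replicate 2 (113), KO CMC replicate 1 (120) or 2 (99), and WT CMC replicate 1 (103), 2 (78) or 3 (621). The log2 ratio of Rptor to Rictor after CMC, 0.05, ranged from -0.050 to 0.10 with 1 library left out, the reversal being without KO CMC replicate 2. Some calls of list genes changed too: Eif4ebp2 after CMC was lost without WT CMC replicate 1 (adjusted p = 0.0874), and Tsc1 after CMC was called without WT CMC replicate 3 (0.0311). The cause of these changes was not tested.

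Same-numbered libraries did not deviate together (correlations of -0.048 to 0.005), so the numbers were not taken as pairs. Outside the WT CMC group, replicates differed little beyond counting noise, with a chi-square per degree of freedom of 1.11 to 1.32. Within that group it was 1.35 to 2.28. A shared heart cannot be told from these values. With a replicate block, 7018 genes were called in untreated RNA, against 7047, and 1 member, Eif4ebp1, was called higher in KO after CMC against untreated (adjusted p = 0.0492). Counts of 6 to 21 per library limit the precision of Sesn2 in WT, and of 7 to 17 that of Ddit4.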
